A study of Mus musculus with 12 samples.

Results

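The lecticans, the tenascins and the matrix proteins that bind them were represented by 8 genes, taken by name from the gene expression table of the embryonic mouse telencephalon: Vcan, Ncan, Bcan, Acan, Tnc, Tnr, Ptprz1 and Hapln1. Each name matched 1 of the 26190 genes of the table, and 7 of the 8 genes reached the count minimum for testing, as did 14454 genes in all. Whole telencephalon was taken from wild-type (WT) C57BL/6J embryos, and polyA RNA was sequenced from 3 females and 3 males at embryonic day (E) 14.5 and from 3 females and 3 males at E11.5, with 1 library per embryo. The study was designed to compare the sexes at a peak of neurogenesis (E14.5) and at a peak of neural stem cell expansion (E11.5). No mutant, transgene or treatment was used in any group. The E14.5 embryos came from 2 mothers, with replicates 1 and 2 of both sexes from the first and replicate 3 of both sexes from the second, and the E11.5 embryos are listed under 3 mothers, each with 1 female and 1 male. The list of embryos was used here, although the text of the study counts fewer litters at E11.5. The p-values below measure the spread between embryos that partly share a mother, and each of the 4 groups carries sample numbers of its own series in the labels, so a difference between groups and a difference between series cannot be told apart.

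Lecticans are large proteoglycans whose protein cores carry chondroitin sulfate chains. Their N-terminal domain binds hyaluronan, link proteins lock that bond in place, and their C-terminal lectin domain binds tenascins, so that the 3 kinds of molecule form a network around neural cells. In the embryonic brain this network surrounds neural stem cells, migrating neurons and growing axons, and in the adult a denser form of it, the perineuronal net, wraps certain neurons.

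The genes lie on 7 chromosomes of the GRCm38 build. The lectican genes are Vcan (versican; chr13:89655310-89742512, minus strand), Ncan (neurocan; chr8:70093085-70120844, minus strand), Bcan (brevican; chr3:87987531-88000356, minus strand) and Acan (aggrecan; chr7:79053226-79115099, plus strand). The tenascin genes are Tnc (chr4:63959785-64047015, minus strand) and Tnr (chr1:159523769-159924922, plus strand). Ptprz1, which encodes a receptor-type tyrosine phosphatase that carries chondroitin sulfate and whose secreted form is phosphacan, lies at chr6:22875502-23052916 on the plus strand. Hapln1, which encodes link protein 1, lies at chr13:89540636-89611832 on the plus strand, beside Vcan and on the opposite strand. Overlapping genes added almost nothing to these loci, since the microRNA gene inside Ncan had 0 counts and the antisense gene at the start of Acan had at most 1 count in any library.

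Promoters are shown for the 5 genes with the largest age differences, of which Bcan, Tnr, Tnc and Ncan were higher and Hapln1 was lower at E14.5. Each sequence runs 5′ to 3′ from 250 bases before to 50 bases after the transcription start that RefSeq gives on GRCm38.p6, and capitals mark a match on either strand to the motif TATAA of the TATA box, to the motif CCAAT, or to the GC box motif GGGCGG. The windows are chr3:88000307-88000606 (minus strand) for Bcan, chr1:159523519-159523818 (plus strand) for Tnr, chr4:64046966-64047265 (minus strand) for the first of 2 Tnc starts, chr8:70120795-70121094 (minus strand) for Ncan and chr13:89540386-89540685 (plus strand) for Hapln1.
Bcan: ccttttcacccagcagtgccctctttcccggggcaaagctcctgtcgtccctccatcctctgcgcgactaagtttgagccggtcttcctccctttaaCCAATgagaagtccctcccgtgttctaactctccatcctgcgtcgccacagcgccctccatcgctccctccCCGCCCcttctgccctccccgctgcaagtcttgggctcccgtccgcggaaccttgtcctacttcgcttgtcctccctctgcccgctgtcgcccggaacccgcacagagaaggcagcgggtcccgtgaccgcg
Tnr: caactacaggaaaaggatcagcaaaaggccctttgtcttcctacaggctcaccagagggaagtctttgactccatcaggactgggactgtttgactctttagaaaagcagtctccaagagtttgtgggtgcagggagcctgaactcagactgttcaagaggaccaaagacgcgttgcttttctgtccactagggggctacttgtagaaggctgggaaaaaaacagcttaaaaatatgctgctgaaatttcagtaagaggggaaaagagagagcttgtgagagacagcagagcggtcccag
Tnc: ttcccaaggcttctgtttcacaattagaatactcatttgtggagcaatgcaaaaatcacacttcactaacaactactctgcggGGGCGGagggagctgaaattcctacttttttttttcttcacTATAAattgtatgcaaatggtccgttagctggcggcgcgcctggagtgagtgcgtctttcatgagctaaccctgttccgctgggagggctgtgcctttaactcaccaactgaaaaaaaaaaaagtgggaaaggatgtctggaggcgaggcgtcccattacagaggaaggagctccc
Ncan: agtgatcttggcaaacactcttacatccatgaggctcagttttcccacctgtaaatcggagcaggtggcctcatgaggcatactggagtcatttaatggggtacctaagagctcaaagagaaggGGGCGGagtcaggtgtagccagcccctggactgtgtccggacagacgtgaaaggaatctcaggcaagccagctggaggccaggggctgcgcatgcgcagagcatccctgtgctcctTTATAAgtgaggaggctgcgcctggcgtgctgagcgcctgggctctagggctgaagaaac
Hapln1: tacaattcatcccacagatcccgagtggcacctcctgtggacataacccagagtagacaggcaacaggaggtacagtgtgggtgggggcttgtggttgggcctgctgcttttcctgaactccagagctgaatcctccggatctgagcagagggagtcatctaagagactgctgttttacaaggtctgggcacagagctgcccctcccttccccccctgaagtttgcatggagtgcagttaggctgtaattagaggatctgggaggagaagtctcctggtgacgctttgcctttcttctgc
The windows of the 4 genes that were higher at E14.5 differed among themselves in these letters. The Bcan window held 24 CpG dinucleotides at a GC content of 64.0%, with 1 CCAAT and 1 GGGCGG match. The Tnr window held 3 CpG dinucleotides at 48.0% GC and no match, as did the Hapln1 window, with 3 CpG dinucleotides at 54.3% GC. TATAA was matched in Ncan, where TTATAA reads as TATAA on both strands, and in Tnc, each with 1 GGGCGG match. Over all 32851 RefSeq promoter windows the median was 7 CpG dinucleotides and 52.7% GC, and TATAA was present in 24.9%, CCAAT in 37.4% and GGGCGG in 35.7% of them. A match is a description of these letters only.

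The libraries held between 17551763 and 28355361 counts in genes. The forebrain marker Dlx1 was present in every library, at 201 to 268 CPM at E14.5 and 91.5 to 117 CPM at E11.5, where CPM is the count of a gene scaled to a common library total. Of the 8 listed telencephalon markers, 3 were called higher and 2 lower at E14.5. Their sum was 1493 to 1649 CPM in E14.5 females and 1110 to 1218 CPM in E14.5 males, without overlap. At E11.5 it was 1185 to 1212 CPM in females and 1186 to 1206 CPM in males. The following features of the libraries touch the results below. Over all tested genes, the ratio between the sexes at E14.5 varied with the GC content of the transcript, with a median log2 ratio of female to male of -0.30 in the fifth of genes with the lowest GC content (31.9 to 44.6%) and 0.37 in the fifth with the highest (56.1 to 73.2%). Corrected values, with each library adjusted for GC content and transcript length, are given beside the members' values as counted. This was done for the age difference and for the sex difference at E14.5. For the age difference as a mean of the sexes, the median log2 fold change varied little with GC content, from -0.05 to 0.06. In females it ran from -0.24 at the lowest to 0.30 at the highest GC content, and in males from 0.17 to -0.18. The members' transcripts ran from 3808 bases (Bcan) to 14689 (Vcan), with 10006 for Ptprz1. The parts of GC content and length in the correction were not tested apart. At E14.5 replicate 3, from the second mother, stood apart in both sexes. Their summed neuronal markers reached 6358 CPM in the female and 6819 CPM in the male, against 5159 to 5813 CPM in the E14.5 embryos of the first mother, and their summed radial glia markers were 2159 and 2241 CPM, against 2398 to 2525 CPM.

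Levels can be compared between genes in FPKM, a read density per length of transcript and per library total. At E14.5 the order was Ncan (50.6 ± 5.46 FPKM; SD, n = 6 libraries, as for the other genes), Ptprz1 (36.3 ± 9.37), Vcan (30.6 ± 11.9), Tnc (6.21 ± 2.72), Bcan (3.90 ± 0.90), Tnr (1.72 ± 0.45), Hapln1 (0.435 ± 0.097) and Acan (0.0146 ± 0.0047). At E11.5 it was Ptprz1 (32.5 ± 0.92 FPKM), Vcan (20.4 ± 1.84), Ncan (18.8 ± 2.11), Hapln1 (10.47 ± 1.49), Tnc (0.751 ± 0.187), Bcan (0.193 ± 0.050), Tnr (0.168 ± 0.032) and Acan (0.0309 ± 0.0143). Neighbours in the E14.5 order overlapped in their ranges for Ncan and Ptprz1, Ptprz1 and Vcan, and Tnc and Bcan, while at E11.5 only Vcan and Ncan, and Bcan and Tnr, overlapped. Hapln1 took the seventh place at E14.5, against the fourth at E11.5, and Ncan took the first, against the third, while Acan was last at both ages.

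**Figure D1:**
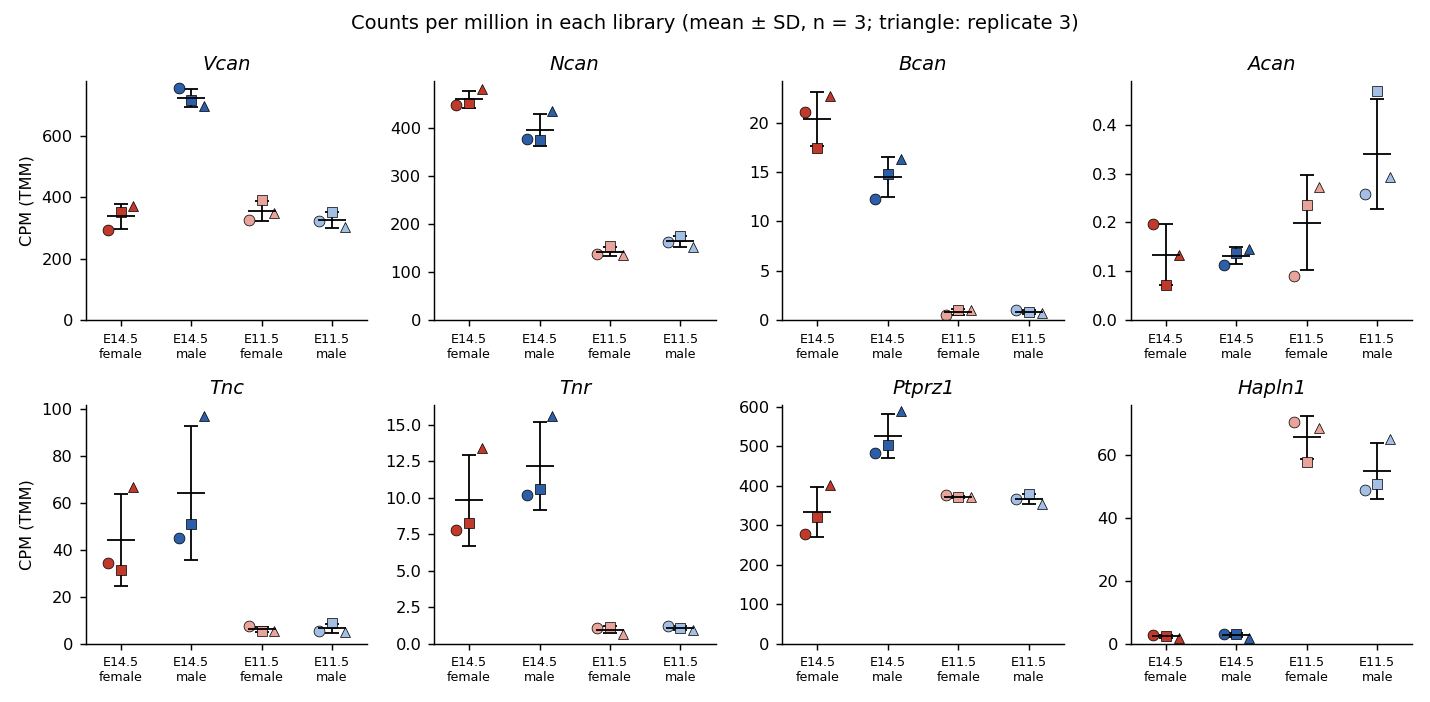
CPM, with libraries scaled by the trimmed mean of M values (TMM), of each of the 8 genes in each of the 12 libraries (vertical axes start at 0 and differ between panels); bars are the mean ± SD of 3 libraries, and circle, square and triangle are replicates 1, 2 and 3. Bcan, Tnc and Tnr lie near 0 at E11.5, Hapln1 lies near 0 at E14.5, and Vcan stands highest in E14.5 males, at 699 to 756 CPM.

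Between the ages, 5 of the 7 tested genes were higher at E14.5 (Bcan, Tnr, Tnc, Ncan and Vcan) and 1 was lower (Hapln1), by edgeR's quasi-likelihood test as a mean of the sexes, where a call needed an adjusted p under 0.05 together with a log2 fold change beyond 0.5 in either direction. Over all tested genes 24.4% were called higher and 19% lower at E14.5. With GC content and length corrected for, 4 of the 7 were higher and Hapln1 was lower, against 23.5% and 19.1% of all genes, and Vcan was no longer called. The median log2 fold change of all genes was -0.01. These are levels in whole tissue, in which fewer cells of a type and less RNA per cell cannot be told apart.

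Bcan, a lectican of the nervous system, had the largest increase of the 8 genes. Its level was 21.1, 17.4 and 22.7 CPM in E14.5 females (replicates 1, 2 and 3, the order kept throughout) and 12.3, 14.9 and 16.4 CPM in E14.5 males, against 0.493, 0.991 and 1.001 CPM in E11.5 females and 1.04, 0.823 and 0.672 CPM in E11.5 males. Every E14.5 library lay far above every E11.5 library, and within E14.5 the females lay above the males. The fitted difference was 20.5-fold (log2 4.36, SE 0.14, adjusted p = 3.52e-12), and 4.10 on the log2 scale after correction. It was present in both sexes, with a log2 fold change of 4.62 in females and 4.10 in males as counted. After correction these were 4.08 in females and 4.12 in males. The E11.5 level rested on 11 to 24 counts per library, near the count minimum of 16. Over the 28 alternatives the log2 fold change ran from 2.02 to 4.62, and Bcan was called in all 28.

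Ncan, the other lectican of nervous tissue, had the highest mean FPKM of the 8 genes at E14.5, in a range that overlapped with that of Ptprz1. In CPM, Ncan was 446, 451 and 479 in E14.5 females and 376, 374 and 434 in E14.5 males. At E11.5 it was 137, 154 and 136 CPM in females and 163, 175 and 152 CPM in males. All E14.5 libraries lay above all E11.5 libraries. The difference was 2.79-fold (log2 1.48, SE 0.05, adjusted p = 4.28e-12). The increase as counted was larger in females (log2 1.69) than in males (1.27), and after correction it was 1.11 in females and 1.12 in males.

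Vcan, the lectican found widely in embryonic tissues, was called higher at E14.5 in males as counted, did not pass the test in females, and was called in neither sex after correction. It was 293, 353 and 370 CPM in E14.5 females and 756, 717 and 699 CPM in E14.5 males, against 325, 390 and 350 CPM in E11.5 females and 323, 354 and 302 CPM in E11.5 males. The 3 E14.5 males lay far above the other 9 libraries, and the E14.5 females overlapped with both E11.5 groups. The log2 fold change with age was 1.15 in males (adjusted p = 7.50e-08) and -0.07 in females (adjusted p = 0.497), and 0.54 as the mean of both (adjusted p = 2.23e-06). After correction these were 0.39 in males (adjusted p = 0.000525), -0.45 in females (adjusted p = 0.000175) and -0.03 as the mean (adjusted p = 0.64), so both sexes then lay under the size needed for a call, in opposite directions, and the sign of the mean turned. The mean also lay under that size by limma on FPKM, at 0.47 and 0.49 with a pseudocount of 1 or 0.1. Over all genes in the GC range of Vcan (44.6 to 48.6%), the correction moved the median with age from -0.14 to -0.02 in females. In males it moved that median from 0.05 to -0.03. The female shift of Vcan thus ran opposite to that of genes of like GC content, and the part of its transcript length was not tested.

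Acan, the main proteoglycan of cartilage and a component of adult perineuronal nets, was barely detected. Its counts summed to 10 over the E14.5 females (exact Poisson 95% interval 4.795 to 18.4) and 8 over the E14.5 males (3.45 to 15.8), against 13 over the E11.5 females (6.92 to 22.2) and 25 over the E11.5 males (16.2 to 36.9). Levels were 0.0710 to 0.197 CPM at E14.5 and 0.0896 to 0.470 CPM at E11.5, where 3 counts correspond to 0.106 to 0.171 CPM in the E14.5 libraries and 0.119 to 0.141 CPM in the E11.5 libraries. The mean at E14.5 was lower by 0.137 CPM (two-sided exact permutation test over the 12 libraries, unadjusted p = 0.0195), but the 2 ages overlapped and Acan did not reach the count minimum for the test across genes. The intervals cover counting error only.

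**Figure D2:**
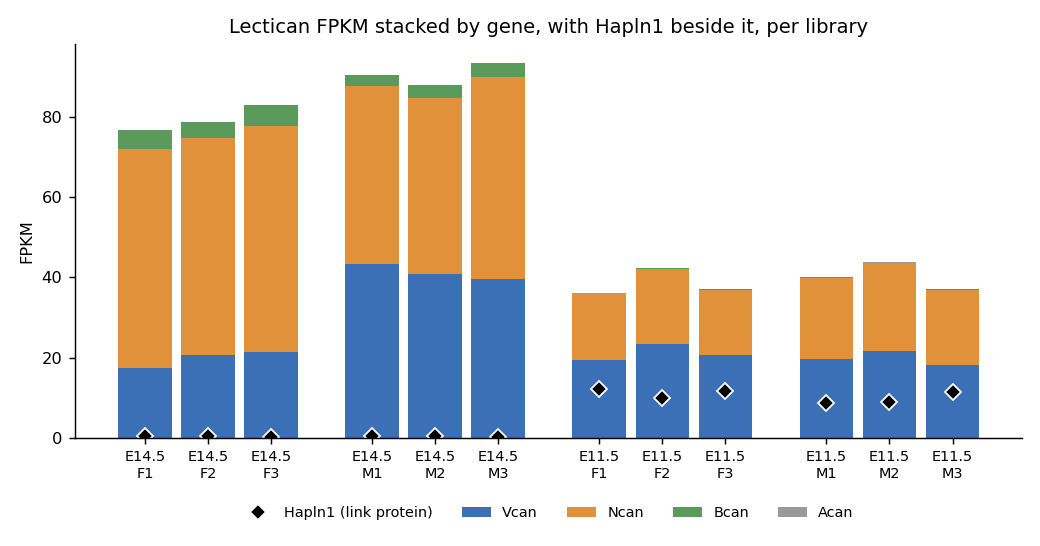
FPKM of the 4 lecticans stacked in each library (bars, from 0), with the FPKM of Hapln1 in the same library as a diamond; F and M are female and male replicates 1 to 3. The stacked height is 76.9 to 93.6 FPKM at E14.5 and 36.2 to 43.8 FPKM at E11.5, while the diamond lies at 0.320 to 0.538 FPKM at E14.5 and 8.58 to 12.2 FPKM at E11.5.

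The makeup of the lectican transcripts is given as each gene's share of the summed lectican FPKM. The summed FPKM of the 4 lecticans was 79.5 ± 3.11 in E14.5 females and 90.7 ± 2.81 in E14.5 males, against 38.6 ± 3.36 in E11.5 females and 40.3 ± 3.37 in E11.5 males (SD, n = 3 each). Of this sum, Ncan made up 69.3 ± 1.44% in E14.5 females and 50.9 ± 2.61% in E14.5 males, against 44.9 ± 1.20% in E11.5 females and 50.3 ± 0.29% in E11.5 males. Vcan made up 24.9 ± 1.87% in E14.5 females, 45.6 ± 2.94% in E14.5 males, 54.6 ± 1.01% in E11.5 females and 49.1 ± 0.31% in E11.5 males. Bcan reached 5.79 ± 0.70% in E14.5 females and 3.52 ± 0.44% in E14.5 males and was under 1% in every E11.5 library. These shares are as counted and carry no correction for GC content.

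Tnc and Tnr, the tenascins of the developing nervous system, were both higher at E14.5. Tnc, an extracellular glycoprotein of neural stem cell zones, was 34.2, 31.3 and 66.7 CPM in E14.5 females and 45.0, 50.9 and 97.0 CPM in E14.5 males, against 7.35, 5.29 and 5.55 CPM in E11.5 females and 5.53, 8.85 and 5.08 CPM in E11.5 males. The ages did not overlap, and in both sexes the embryo of the second mother was the highest of its group, at 2.03 times the mean of the first mother's embryos in the female and 2.02 times in the male. The age difference was 8.44-fold (log2 3.08, SE 0.31, adjusted p = 8.33e-06), and 2.74 on the log2 scale after correction and 2.65 without the embryos of the second mother.

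Tnr, a tenascin restricted to the central nervous system that binds lecticans and contactin 1, followed the same course at a lower level. It was 7.81, 8.28 and 13.4 CPM in E14.5 females and 10.2, 10.6 and 15.6 CPM in E14.5 males, against 1.08, 1.13 and 0.683 CPM in E11.5 females and 1.21, 1.10 and 0.966 CPM in E11.5 males. Again no E14.5 library overlapped with E11.5, and replicate 3 was the highest E14.5 library of each sex. The difference was 10.6-fold (log2 3.41, SE 0.20, adjusted p = 2.39e-09) and 3.27 on the log2 scale after correction and 3.15 without the embryos of the second mother. Per length, Tnc exceeded Tnr in every library, with a ratio of their FPKM of 3.48 ± 0.60 at E14.5 and 4.58 ± 1.20 at E11.5 (SD, n = 6), and these ranges overlapped.

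Hapln1, whose product links lecticans to hyaluronan, was lower at E14.5, the opposite direction to Bcan and Ncan. It was 2.64, 2.59 and 1.91 CPM in E14.5 females and 3.18, 3.25 and 1.95 CPM in E14.5 males, against 70.4, 57.7 and 68.6 CPM in E11.5 females and 48.8, 50.8 and 65.1 CPM in E11.5 males. Every E14.5 library lay below every E11.5 library, and replicate 3 was the lowest E14.5 library of each sex. The level was 23.2-fold lower at E14.5 (log2 -4.53, SE 0.12, adjusted p = 5.62e-12), and -4.61 on the log2 scale after correction. As counted the log2 fold change was -4.77 in females and -4.30 in males, and after correction -4.61 in females and -4.60 in males. Set against the lecticans, Hapln1 amounted to 0.514 ± 0.118 FPKM per 100 FPKM of lecticans at E14.5 and 26.9 ± 5.67 at E11.5 (SD, n = 6).

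Hapln1 is also a gene of cartilage. Of the 8 tested genes of the cartilage list 1 was called higher and 5, Hapln1 among them, lower at E14.5. Over all tested genes 24.4% were called higher and 19% lower. Summed over the 9 listed cartilage genes other than Hapln1 and Acan, the level was 197 to 276 CPM in E14.5 females and 135 to 162 CPM in E14.5 males, against 357 to 384 CPM in E11.5 females and 367 to 407 CPM in E11.5 males. Col2a1, the fibrillar collagen of cartilage, was 63.0 to 127 CPM at E14.5 and 194 to 246 CPM at E11.5 (log2 fold change -1.32, adjusted p = 1.19e-08), whereas Matn1, a cartilage matrilin, stayed at or below 0.091 CPM in every library. Cnmd, the cartilage gene chondromodulin, was the one called higher, with 0.341 to 0.925 CPM at E14.5 and 0.118 to 0.519 CPM at E11.5 (log2 1.09, adjusted p = 0.00919). Of the 10 listed markers of meningeal mesenchyme and pericytes, 3 were called higher and 7 lower, and their sum was 607 to 872 CPM at E14.5 and 997 to 1270 CPM at E11.5. The part of these tissues in the Hapln1 result was not tested.

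Ptprz1, the phosphatase receptor of neural stem cells and glia, was abundant at both ages. It was 277, 321 and 403 CPM in E14.5 females and 484, 502 and 589 CPM in E14.5 males, against 375, 371 and 370 CPM in E11.5 females and 366, 378 and 353 CPM in E11.5 males. The E14.5 males lay above all other libraries, the E14.5 females lay on both sides of the E11.5 libraries, and the E11.5 libraries lay within a narrow band. As a mean of the sexes the log2 fold change was 0.18 (SE 0.08, adjusted p = 0.0452), which is under the 0.5 needed for a call, and it was -0.20 (adjusted p = 0.00114) after correction. In males it was 0.52 as counted (adjusted p = 0.000866) and -0.04 after correction, and in females -0.16 as counted and -0.35 after correction (adjusted p = 0.00022).

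**Figure D3:**
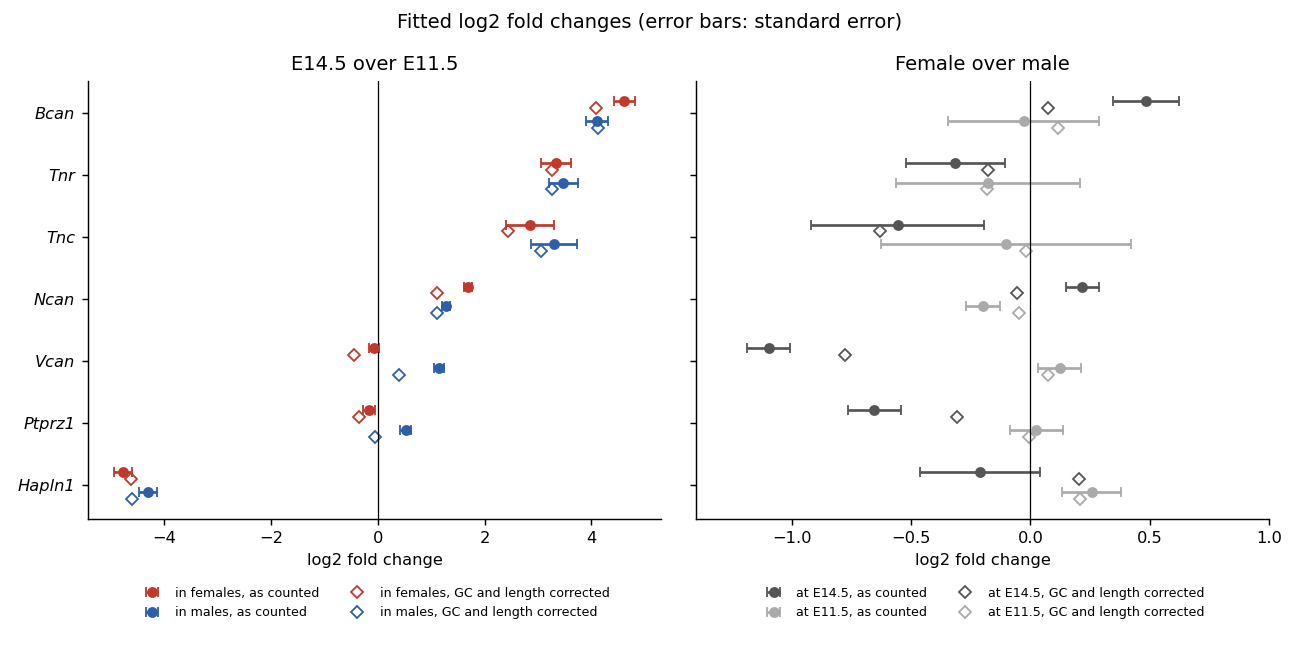
Fitted log2 fold changes (horizontal axis) of the 7 tested genes with age in each sex (left) and between the sexes at each age (right); filled circles with standard errors are values as counted and open diamonds are values corrected for GC content and length. The age changes of Bcan, Tnr, Tnc, Ncan and Hapln1 keep their side of 0 in both sexes, while for Vcan the female-over-male values at E14.5 are -1.10 as counted and -0.77 corrected.

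The changes with age stood beside changes in the makeup of the tissue. The counts of markers called below stand against 24.4% of all tested genes called higher and 19% called lower at E14.5. All 8 listed neuronal markers were called higher at E14.5, and their sum was 5159 to 6819 CPM at E14.5 and 1790 to 2161 CPM at E11.5. Of the 10 radial glia markers 3 were called higher and 5 lower, with sums of 2159 to 2525 CPM at E14.5 and 2975 to 3171 CPM at E11.5. Aldoc, a glycolytic enzyme of radial glia and astrocytes, was 112 to 127 CPM at E14.5 and 2.29 to 2.90 CPM at E11.5. Hes5 and Nes went the other way, at 24.6 to 59.6 and 463 to 675 CPM at E14.5. At E11.5 Hes5 and Nes were 76.7 to 100 and 953 to 1128 CPM. Of the 7 markers of oligodendrocyte precursors, a cell type that makes Bcan, Tnr and Ptprz1 later in life, 2 were higher and 4 lower, and their sum was 85.6 to 129 CPM at E14.5 and 115 to 135 CPM at E11.5. Choroid plexus markers, with 6 of 7 tested genes called higher and 1 lower, summed to 244 to 686 CPM at E14.5 and 70.2 to 79.8 CPM at E11.5. Their sum was highest in replicate 3 of each E14.5 sex, as were Tnc and Tnr. The same held for the summed markers of neurons, oligodendrocyte precursors, endothelium, meningeal mesenchyme and pericytes, and microglia and macrophages. The summed markers of radial glia, telencephalon and cartilage were lowest there. Erythroid markers, with 1 of 7 tested genes called higher and 5 lower, summed to 866 to 1251 CPM at E14.5 and 3785 to 6556 CPM at E11.5. No listed marker was at 0 in all libraries. The part of cell makeup in the members' changes was not tested.

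Between the sexes at E14.5, 2 of the 7 tested genes were called, Vcan and Ptprz1, both lower in females. Over all genes 5.62% were called in that direction. Vcan was lower by 1.10 on the log2 scale (SE 0.09, adjusted p = 1.11e-06), with 293 to 370 CPM in females and 699 to 756 CPM in males, so the sexes did not overlap. Ptprz1 was lower by 0.65 (SE 0.11, adjusted p = 0.00043), with 277 to 403 CPM in females and 484 to 589 CPM in males, again without overlap. Both transcripts have a GC content in the range where genes in general were lower in females, 45.4% for Vcan and 43.3% for Ptprz1. After correction Vcan remained called at -0.77 (adjusted p = 3.33e-05), and Ptprz1 stood at -0.31 (adjusted p = 0.00353), under the size needed for a call, so that 1 of 7 was called toward males, against 1.72% of all genes.

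The other 5 genes were not called between the sexes at E14.5. Bcan, with the highest GC content of the 8 transcripts (60.7%), was 17.4 to 22.7 CPM in females and 12.3 to 16.4 CPM in males, and its log2 ratio of 0.49 (adjusted p = 0.0105) became 0.07 (adjusted p = 0.745) after correction. Ncan, with a GC content of 56.9%, had a log2 ratio of 0.22 (adjusted p = 0.0195) as counted and -0.05 (adjusted p = 0.44) after correction. Tnc was lower in the female than in the male of the same replicate number in all 3 pairs, with a log2 ratio of -0.55 (SE 0.36, adjusted p = 0.248), and -0.63 after correction. With litter as a block in the fit, which removes the difference between the mothers, Tnc was called (-0.55, adjusted p = 0.00229), and it was also called without both embryos of the second mother (-0.55, adjusted p = 0.0273). Tnc was called as well with the correction and the litter block together. Tnr was likewise lower in the female of each same-number pair, and stood at -0.31 (adjusted p = 0.241), and at -0.18 after correction. Without both embryos of the second mother Tnr was -0.37 (adjusted p = 0.0330, edgeR), under the size needed for a call. Hapln1 stood at -0.21 (adjusted p = 0.526), and at 0.20 after correction. These calls moved with single libraries. Without E14.5 female replicate 3, Tnc (-0.98, adjusted p = 0.0487) and Tnr (-0.60, adjusted p = 0.00928) were called as lower in females. Bcan was called as higher in females without E14.5 female replicate 2 (0.59, adjusted p = 0.00527), without E14.5 male replicate 2 (0.50, adjusted p = 0.0280) or without E14.5 male replicate 3 (0.58, adjusted p = 0.00545).

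Between the sexes at E11.5, 0 of the 7 genes were called, against 0.374% of all genes in either direction. Of the 7 genes 1, Ncan, had an unadjusted p under 0.05 in edgeR, and DESeq2 and limma called 0. With litter as a block 169 of the 14454 genes were called, against 54 without it, and again none of the 7. The Ncan log2 ratio was -0.20 (SE 0.07, adjusted p = 0.155), with 136 to 154 CPM in females and 152 to 175 CPM in males, and -0.05 after correction. Hapln1 had the largest difference, a log2 ratio of 0.26 (SE 0.12, adjusted p = 0.299), with 57.7 to 70.4 CPM in females and 48.8 to 65.1 CPM in males. Without both embryos of the second E14.5 mother, the edgeR fit gave Ncan -0.20 with an adjusted p of 0.0209. Among the alternative fits both Ncan and Hapln1 reached an adjusted p under 0.05, but never the size needed for a call. Their log2 ratios ran from -0.26 to -0.05 for Ncan and from 0.18 to 0.40 for Hapln1. For Vcan the ratio was 0.12 (SE 0.09) and for Ptprz1 0.02 (SE 0.11). The sexes overlapped in both.

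The change of the sex difference between the ages was tested directly. It was called for 3 of the 7 genes, Vcan, Ptprz1 and Ncan, at an adjusted p under 0.05, which 39.1% of all genes also passed. After correction 2 of the 7 passed, against 11.4% of all genes. For Vcan the log2 ratio of female to male was lower at E14.5 than at E11.5 by 1.22 (SE 0.13, adjusted p = 1.39e-05), and by 0.85 after correction (adjusted p = 0.000573). For Ptprz1 the difference was -0.68 (SE 0.16, adjusted p = 0.00446) as counted and -0.30 (adjusted p = 0.0466) after correction. For Ncan it was 0.42 (SE 0.10, adjusted p = 0.00421) as counted and -0.01 (adjusted p = 0.973) after correction. Hapln1 did not pass (-0.47, adjusted p = 0.211) unless litter was a block (-0.49, adjusted p = 0.0396), and with the correction it stood at -0.01.

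The genes that make, cut and bind this matrix were followed through lists named by role. Over all tested genes 24.4% were called higher and 19% lower at E14.5, and the counts of each list below stand against these shares. Of the 13 listed genes for hyaluronan synthesis, receptors and breakdown 9 were tested, and 3 were called higher and 4 lower at E14.5. The hyaluronan synthases moved apart, since Has3 was 24.9 to 28.0 CPM at E14.5 and 8.47 to 12.6 CPM at E11.5 (log2 1.37, adjusted p = 2.14e-09), while Has2 was 2.49 to 4.54 CPM at E14.5 and 6.01 to 9.64 CPM at E11.5 (log2 -1.17, adjusted p = 3.34e-07). The hyaluronan receptors did so too, with Lyve1, of lymphatic endothelium and macrophages, higher (log2 1.87) and Cd44 lower (log2 -0.97). The median log2 fold change of the tested genes was -0.42, against -0.01 for all genes.

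Genes for the synthesis and sulfation of chondroitin sulfate, the sugar chain that lecticans and phosphacan carry, were called in 8 of 21 tested cases, 4 higher and 4 lower, with a median of 0.13, against 24.4% higher and 19% lower over all genes. Ust, a uronyl sulfotransferase, was higher (log2 1.30, adjusted p = 7.88e-07). Dse, the epimerase that turns chondroitin into dermatan sulfate, was lower (log2 -1.34, adjusted p = 2.42e-10), and so was Chst14, the sulfotransferase for dermatan sulfate (log2 -0.91, adjusted p = 7.03e-09). Of the 15 other proteoglycans listed, 6 were higher and 6 lower. Among them Dcn, the small leucine-rich proteoglycan decorin of connective tissue, was higher (log2 2.24), and the heparan sulfate proteoglycan genes Sdc1 and Gpc3 were lower (log2 -1.18 and -1.08).

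The other link proteins and tenascins stayed low. Hapln3 was the only other link protein gene to reach the count minimum, at 1.01 to 1.60 CPM at E14.5 and 1.30 to 1.76 CPM at E11.5, and was not called (log2 -0.28, adjusted p = 0.0924). Hapln2 and Hapln4, the link proteins of the adult brain, were at most 0.118 and 0.400 CPM in any library. Tnn and Tnxb were at most 0.182 and 0.489 CPM. Summed with Hapln3, these link proteins reached 1.10 to 1.88 CPM at E14.5 and 1.34 to 1.93 CPM at E11.5, below the Hapln1 level in every E14.5 library.

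Partners of Ptprz1 and Tnr mostly rose. Of 9 tested genes 7 were called higher and 2 lower, with a median log2 fold change of 1.504. Cntn1, the neuronal adhesion molecule contactin 1 that binds both proteins, was 19.3 to 48.2 CPM at E14.5 and 2.91 to 4.31 CPM at E11.5 (log2 3.04, adjusted p = 4.8e-08). The growth factors that bind Ptprz1 moved apart. Mdk (midkine) was lower at E14.5, with 80.2 to 132 CPM at E14.5 and 201 to 240 CPM at E11.5 (log2 -1.02, adjusted p = 5.60e-08). Ptn (pleiotrophin), named after its values were seen, was higher, with 279 to 333 CPM at E14.5 and 94.96 to 116 CPM at E11.5 (log2 1.504, adjusted p = 3.23e-11).

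Receptors of the matrix went in both directions. Of the 6 receptors of chondroitin sulfate 5 were called higher and 1 lower, with a median of 1.57. Rtn4rl2 and Rtn4r, the Nogo receptor family genes, were higher (log2 2.49 and 1.94), and the receptor phosphatase gene Ptprf was lower (log2 -0.67). Of the 9 tested receptors of tenascins 1 was called higher and 5 lower, with a median of -0.68. The integrin subunit genes Itgb3 and Itga9 were 3.23 to 4.88 and 7.94 to 9.29 CPM at E14.5, against 14.2 to 24.1 and 26.8 to 35.1 CPM at E11.5 (log2 -2.51 and -1.90, adjusted p = 6.69e-10 and 4.55e-12). Itga7 was called higher as counted (log2 0.66, adjusted p = 0.00314) and stood at 0.46 after correction.

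The enzymes that cut lecticans and their inhibitors were divided as well, with 4 of 13 tested genes higher, 5 lower and a median of -0.04. Mmp9, a gelatinase, had the largest increase of the list, with 7.83 to 12.6 CPM at E14.5 and 0.319 to 0.708 CPM at E11.5 (log2 4.30, adjusted p = 1.53e-11). Adamts5, an aggrecanase, was higher (log2 1.45). Adamts15 and Adamts20, of the same protease family, were lower (log2 -1.51 and -1.28). Of the 10 scaffold proteins of nets and synapses 5 were higher and 3 lower. Reln, the secreted protein reelin that guides cortical layering, was 154 to 420 CPM at E14.5 and 32.7 to 42.6 CPM at E11.5 (log2 2.81, adjusted p = 2.21e-08). Lgals1, a galectin, was lower (log2 -1.23). After correction the number called higher and the number called lower each changed by at most 1 gene in these lists of matrix genes.

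**Figure D4:**
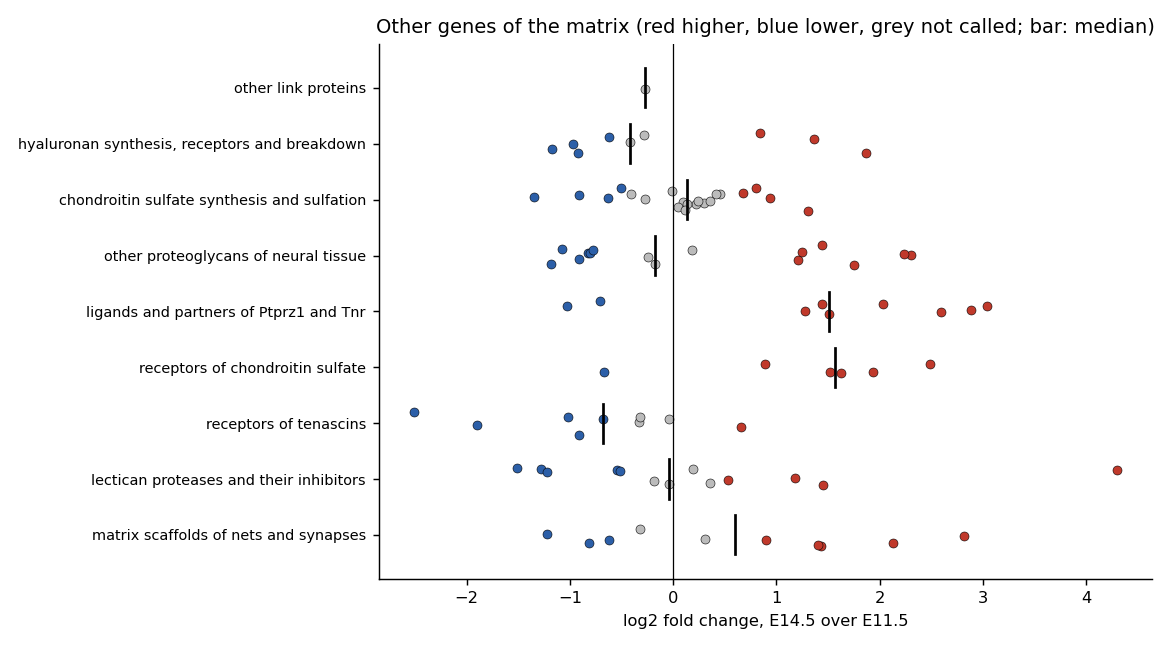
Log2 fold change of E14.5 over E11.5 (horizontal axis) for every tested gene of the 9 lists of matrix genes with a tested member, as points (red called higher, blue called lower, grey not called), with the median of each list as a vertical bar. The median of the chondroitin sulfate receptors lies at 1.57 and that of the tenascin receptors at -0.68.

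Across the 12 libraries, the genes closest to 6 of the members were found by the root mean square difference of log2 CPM after centring, a description of libraries that share age, sex and depth. For Ncan the closest were Crmp1 (0.0386) and Pdzd4 (0.0593), and for Ptprz1 they were Mdn1 (0.0657) and Vps13b (0.0708). For Vcan they were Rnpc3 (0.130) and Wsb1 (0.140). For Tnc the closest were Cntn1 (0.201) and Lgi1 (0.223). For Bcan (Sncb, 0.287, and Slc1a1, 0.324) and for Hapln1 (Hmga2, 0.307, and Kel, 0.380) the closest genes were farther away. Among the members themselves Vcan and Ptprz1 differed by 0.27 and Tnc and Tnr by 0.31, while Bcan and Hapln1, the members with the largest changes in opposite directions, differed by 4.40.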

How the data were processed

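Paired-end polyA RNA libraries of 12 telencephalons were aligned by the authors with STAR 2.6.0c to GRCm38 (mm10), per the labels and the study's methods, and summarised per gene. The deposited table holds estimated counts (82.7% whole numbers, rounded here for the tests) and FPKM. The deposited FPKM values equal the count over transcript length and a library total above the sum of gene counts, as checked here. Whether strand was used, and how reads shared by genes were divided, is not given in the sources used here.

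Counts were scaled by TMM and fitted with edgeR 4.0.16 (robust quasi-likelihood, 4 groups, 8 residual degrees of freedom) over the 14454 genes whose mean count reached 16 in any group, with Benjamini-Hochberg adjustment. A call needed an adjusted p under 0.05 together with a log2 fold change beyond 0.5 in either direction, or the adjusted p alone for the change of the sex difference. FPKM was used to compare levels between genes and for sums, shares and ratios of members. The corrected fit subtracts, per library, a loess curve (span 0.5) on GC content and length. DESeq2 1.42.0 and limma 3.58.1 (on log2 FPKM) were alternatives. Sequences are RefSeq's, and all 8 genes matched. The fit was tested on simulated data.

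The members and the gene lists were chosen with earlier results of these data known. Of each other list, the named genes are among the 2 called genes with the largest change in each direction, and marker genes are also named where a member's level stands beside them. Within an age, libraries with the same replicate number share a mother by the study's list of embryos (its text counts 2 litters at E11.5, the list 3), and their deviations correlated at 0.21, 0.27 and 0.56 at E14.5 and at 0.07, 0.13 and 0.23 at E11.5. Across ages the numbers mark no shared mother. The genes closest to Tnr are not reported here.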

Additional observations from a re-analysis of the deposited data

Results flagged for a closer look

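For 3 genes the sex difference was not the same at E14.5 and E11.5. The log2 ratio of female to male, E14.5 minus E11.5, was -1.22 for Vcan (adjusted p = 1.39e-05, edgeR), -0.68 for Ptprz1 (adjusted p = 0.00446) and 0.42 for Ncan (adjusted p = 0.00421). Corrected for GC content and length, the values were -0.85, -0.30 and -0.01.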

How the results depend on the processing

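Of the 721 alternative values of single fold changes, 696 kept their side of the threshold without a counted reversal. A reversal of direction was counted only where the main or the alternative value was called, which was so for 7. Values that were not called could turn without being counted. The age fold change of Ptprz1, for instance, kept its direction in 23 of 28 alternatives. For E14.5 versus E11.5 the 6265 genes called became 11807 by adjusted p alone, with 7 members called. They became 2800 at an absolute log2 fold change above 1, with 5 members called. When 1 library was left out they were 6055 to 6385, with 6 members called in each of these fits. Between the sexes at E14.5 the 1677 genes became 888 by limma on log2(FPKM + 1), 6560 by adjusted p alone, 113 at an absolute log2 fold change above 1, 1377 to 2109 when 1 library was left out, and 358 with the GC content and length correction (110 higher and 248 lower in females, against 865 and 812 as counted), 380 with it and the replicate block, and 482 with it and the litter block. The 2 members called became 4 by adjusted p alone, 1 at an absolute log2 fold change above 1, 1 with the correction, 1 with the correction and the replicate block, and 2 to 4 when 1 library was left out. The members called were 3 with the litter block, 3 without both embryos of the second E14.5 mother and 3 by limma on log2(FPKM + 0.1). With the correction and the litter block 2 were called, Vcan and Tnc. Between the sexes at E11.5 the 54 genes became 35 by limma on log2(FPKM + 1), 309 by adjusted p alone, 15 at an absolute log2 fold change above 1, 21 to 67 when 1 library was left out, 124 without both embryos of the second E14.5 mother, 169 with the litter block and 121 with that block and the correction. For the change of the sex difference the 5651 genes became 1654 with the correction and 1794 with the correction and the replicate block. The age fold change of Vcan reversed to -0.030 with the correction, -0.030 with the correction and the replicate block, -0.068 in females only and -0.45 in females only with the correction, and the change of the sex difference of Ncan to -0.0053 with the correction, -0.0058 with the replicate block added and -0.0049 with the litter block added. The replicate block across both ages left 6 members called with age and 2 between the sexes at E14.5. It changed no member's call, whereas the litter block changed those of Tnc and Hapln1 given above. The causes of these changes were not tested. Acan lay at the limit of depth.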
